A study of Homo sapiens with 8 samples.

Results

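Cullin-RING ubiquitin ligases are built on a cullin, a long scaffold protein that holds a RING finger protein at its C-terminal end and a substrate receptor, usually through an adaptor, at its N-terminal end. The RING protein brings in the ubiquitin-charged enzyme, the receptor brings in the substrate, and attachment of NEDD8 to the cullin turns the ligase on. The auxin-inducible degron works through such a ligase: OsTIR1, a plant F-box protein made from a transgene, joins the cell's own SKP1 and CUL1, whose RING partner is RBX1, and passes a tagged protein to it when an auxin analog is present. RBX1 also serves CUL2, CUL3, CUL4A, CUL4B and CUL7, whereas RNF7, also called RBX2, serves CUL5.

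RNA of 10 genes was followed here: the 8 cullin genes CUL1, CUL2, CUL3, CUL4A, CUL4B, CUL5, CUL7 and CUL9, and the RING genes RBX1 and RNF7. The members were the rows of the deposited expression table whose gene symbol equals one of these names, 10 of 60754 rows, and all 10 were among the 15614 genes tested, which had to show 1 TPM in any library (TPM, the abundance of a transcript corrected for its length and for the size of the library). The 8 libraries came from SEM, a line of human B-cell acute lymphoblastic leukemia with a KMT2A rearrangement, in 4 groups of 2 named for clones C17.2 and C3.2: C17.2 parental, C17.2 resistant, C3.2 parental and C3.2 resistant.

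Each clone grew from a single cell and carried miniAID-mClover3 fused to the C-terminal end of CTCF on both alleles. It expressed OsTIR1(F74G), a mutant form that binds a synthetic auxin analog, from a lentiviral MND promoter together with Zeocin resistance. Parental and resistant cells alike thus held the transgenic F-box protein. Parental cells received no treatment. Resistant cells had been kept for 36 days in 1 μM 5-Ph-IAA, the auxin analog, and 100 μg/ml Zeocin, and were then taken off treatment. Use of Zeocin in both clones follows the study's methods, while the labels leave it open for each sample and also mention an HA-MBNL1 virus that those methods do not describe for these clones. The study describes the resistant cells as carrying a nonsense change that removes the tag from a CTCF allele in C17.2 and a missense change within the tag in C3.2. Each resistant population therefore stands for a single clone with its own change, and no source used here says that the 2 libraries of a group were separate cultures, so that p-values measure the spread between these libraries, which may be technical. The library numbers in the titles form 1 run for each clone, and clone and any difference in when libraries were made cannot be told apart.

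All 6 B-lineage markers looked for reached 1 TPM, with CD79B the lowest at 4.33 to 15.3 TPM, and together they summed to 555 to 716 TPM. The lineage genes also moved with resistance: CD79B and CD79A were lower in resistant cells of C17.2, by log2 values of -1.51 and -0.41 (adjusted p = 7.26e-05 and 0.00156, limma). In C3.2, CD79B and CD79A were lower, at -1.03 and -0.20, and PAX5 was higher, at 0.27 (adjusted p = 0.00112, 0.0409 and 0.0229, limma). Of 12 markers of other cell types, COL1A1 and PECAM1 reached 1 TPM, and CD3D, CD8A, FCGR3A, COL3A1 and EPCAM were listed at 0 in all 8 libraries. The summed level of these 12 markers moved with resistance, from 5.31 and 6.69 to 11.95 and 12.51 TPM in C17.2 and from 3.55 and 4.29 to 5.99 and 6.58 TPM in C3.2, and the part of either marker list in the results that follow was not tested. Correlation of log2 values within groups was 0.968 to 0.979, and protein-coding genes held 36.0 to 43.3% of the TPM. CTCF RNA, which does not report on the protein tag, was higher in resistant cells of both clones, by a log2 value of 0.44 in C17.2 and 0.34 in C3.2 (adjusted p = 0.000795 and 0.0068, limma with Benjamini-Hochberg adjustment over all tested genes). The call in C3.2 was lost in a fit of that clone alone and without C3.2 parental replicate 2 (adjusted p = 0.0684 and 0.0518, limma).

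TPM was divided by a factor for each library, 0.893 to 1.16, that set the bulk of genes equal between libraries, and the result is called scaled TPM. Because TPM is corrected for transcript length, genes can be ranked within it. CUL3, the scaffold for receptors of the BTB family, was the highest member in every group, at 31.3 to 40.6 scaled TPM over the 8 libraries with a mean of 35.2. CUL1 followed at a mean of 25.8 and RBX1 at 24.1, and these neighbours were not separated, since CUL1 exceeded RBX1 in 5 of 8 libraries. CUL4B stood at 17.0, below RBX1 in all 8 libraries.

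RNF7 (14.7), CUL5 (14.2), CUL2 (13.7), CUL9 (12.6) and CUL4A (12.6 scaled TPM) had overlapping ranges, and none of these neighbours was above the next in more than 5 of 8 libraries. CUL7 was lowest in every group, at 2.98 to 3.82 scaled TPM, and did not overlap CUL4A in any library. Among tested protein-coding genes the mean level of CUL3 lay at percentile 82.8, that of CUL1 at 74.8, that of RBX1 at 72.6 and that of CUL7 at 16.8. The remaining 6 members lay between percentiles 50.6 and 61.0.

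**Figure D1:**
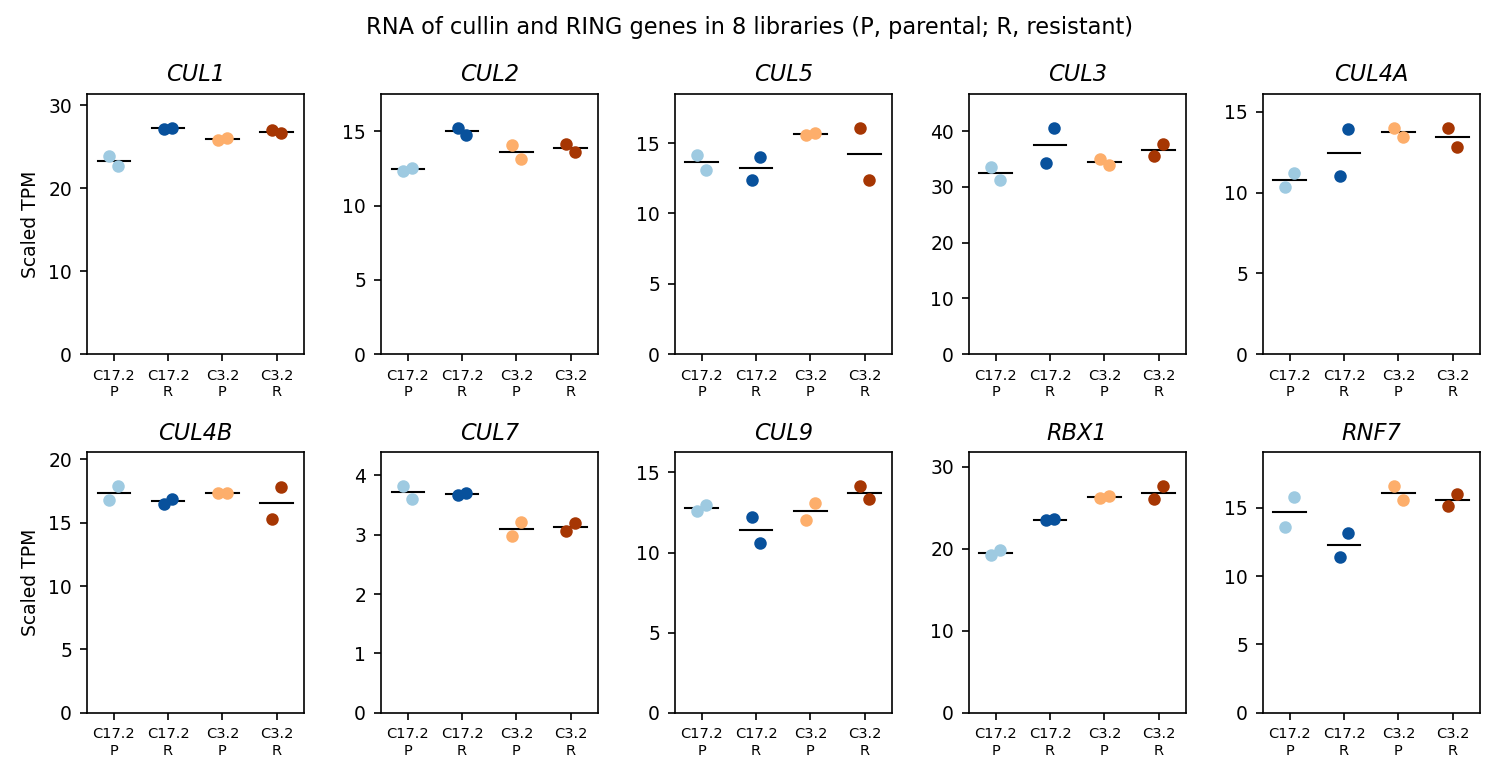
Scaled TPM of each of the 10 genes (vertical axis of each panel, from 0) in the 8 libraries, with points for libraries, a bar for the mean of the 2 libraries of a group, and groups named by clone and P (parental) or R (resistant). Both parental C17.2 libraries of CUL1, CUL2, CUL3 and RBX1 lie below the 6 other libraries, as do those of 14.7% of all tested genes. CUL7 is near 3 to 4 scaled TPM throughout.

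The question put to the genes was whether their RNA differed between resistant and parental cells of a clone, since the degron depends on this ligase. In C17.2, 3 of the 10 members were higher in resistant cells, CUL1, CUL2 and RBX1, each by 0.22 to 0.26 on the log2 scale, and 0 were lower. In C3.2, 0 of 10 passed the test, with log2 fold changes between -0.14 and 0.12. The test was limma on log2(scaled TPM + 1) over all 15614 genes with a threshold of 0.05 on the Benjamini-Hochberg adjusted p, and the pseudocount of 1 makes a fold change of a low gene look smaller. Of all tested genes 27.3% passed in C17.2, 13.4% higher and 13.9% lower, and 11.4% passed in C3.2, with 4.46% higher and 6.9% lower, so 3 of 10 was near the background and is not a result about cullins as a set. In bulk RNA, less RNA per cell and fewer cells of a kind cannot be told apart. The median log2 fold change of the members was 0.088 in C17.2 and 0.020 in C3.2, against 0 over all tested genes in both.

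CUL1 (ENSG00000055130.17), the scaffold of SCF ligases and of the degron, lies on the plus strand of chromosome 7 from 148697914 to 148801110 of GRCh38. It was at 23.8 and 22.7 scaled TPM in parental and 27.1 and 27.3 in resistant libraries of C17.2. In C3.2 it was at 25.9 and 26.0 in parental and 27.0 and 26.6 in resistant libraries. The groups did not overlap in either clone, but the gap in C3.2 was under 1 scaled TPM. The log2 fold change was 0.22 in C17.2 (95% interval 0.11 to 0.32, adjusted p = 0.0122, limma) and 0.044 in C3.2 (-0.060 to 0.15, adjusted p = 0.555, limma).

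The change in C17.2 exceeded that in C3.2 by a log2 value of 0.17 (95% interval 0.028 to 0.32), which missed the threshold over all genes (adjusted p = 0.131, limma). Without C17.2 parental replicate 2 or without C17.2 resistant replicate 2 the CUL1 call was lost by a small margin, with log2 values of 0.18 and 0.21 (adjusted p = 0.0510 and 0.0503, limma). A long noncoding RNA, ENSG00000273314, overlaps the start of CUL1 on the opposite strand at 0.94 to 1.59 TPM, and how reads were counted by strand is not given in the sources used here.

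CUL2 (ENSG00000108094.14), the scaffold that the von Hippel-Lindau receptor VHL uses, lies on the minus strand of chromosome 10 from 35008504 to 35127006. Its scaled TPM was 12.3 and 12.5 in parental and 15.3 and 14.7 in resistant libraries of C17.2, and 14.1 and 13.1 in parental and 14.2 and 13.6 in resistant libraries of C3.2. Parental and resistant libraries stood apart in C17.2 and overlapped in C3.2. The log2 fold change was 0.25 in C17.2 (95% interval 0.12 to 0.38, adjusted p = 0.0168, limma) and 0.027 in C3.2 (-0.10 to 0.16, adjusted p = 0.794, limma), a difference of 0.22 (0.040 to 0.41, adjusted p = 0.124, limma).

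The CUL2 call rested on all 4 libraries of C17.2. Leaving out parental replicate 1, parental replicate 2, resistant replicate 1 or resistant replicate 2 of that clone gave log2 values of 0.24, 0.26, 0.23 and 0.27 with adjusted p of 0.0831, 0.0675, 0.0761 and 0.0536 (limma). The first exons of CUL2 overlap CREM on the opposite strand, which was at 4.21 to 8.79 TPM.

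CUL5 (ENSG00000166266.14, chromosome 11, 108008898 to 108107761, plus strand) shares the elongin adaptor with CUL2 but takes RNF7 as its RING partner. Its scaled TPM was 14.2 and 13.1 in parental and 12.4 and 14.0 in resistant libraries of C17.2, and 15.6 and 15.7 in parental and 16.1 and 12.4 in resistant libraries of C3.2. Parental and resistant libraries overlapped in both clones, and the resistant libraries of C3.2 lay on either side of the parental ones. The log2 fold changes were -0.044 (95% interval -0.34 to 0.25, adjusted p = 0.826, limma) and -0.14 (-0.43 to 0.15, adjusted p = 0.503, limma), and these intervals allow changes in either direction.

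CUL3 (ENSG00000036257.13, chromosome 2, 224470150 to 224585397, minus strand) overlaps the pseudogene ANKRD49P1 on the same strand, which was at 2.04 to 3.79 TPM. CUL3 was at 33.5 and 31.3 scaled TPM in parental and 34.3 and 40.6 in resistant libraries of C17.2. In C3.2 it was at 35.0 and 33.9 in parental and 35.5 and 37.7 in resistant libraries. Both resistant libraries exceeded both parental ones in each clone, and resistant replicate 2 of C17.2 was the highest library of all. The log2 fold change was 0.20 in C17.2 (95% interval -0.0074 to 0.40, adjusted p = 0.139, limma) and 0.085 in C3.2 (-0.12 to 0.29, adjusted p = 0.566, limma), neither past the threshold. With TPM as deposited, or without C17.2 resistant replicate 1, CUL3 also passed in C17.2, with log2 values of 0.36 and 0.32 (adjusted p = 0.0395 and 0.0375, limma).

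CUL4A and CUL4B are close relatives that both bind the adaptor DDB1. CUL4A (ENSG00000139842.15, chromosome 13, 113208193 to 113267108, plus strand) was at 10.3 and 11.2 scaled TPM in parental and 11.0 and 13.9 in resistant libraries of C17.2, and at 14.0 and 13.5 in parental and 14.0 and 12.8 in resistant libraries of C3.2. CUL4B (ENSG00000158290.16, chromosome X, 120505920 to 120604074, minus strand) was at 16.8 and 17.9, 16.5 and 16.9, 17.3 and 17.4, and 15.3 and 17.8 scaled TPM in the same order of groups. Parental and resistant libraries overlapped for both genes in both clones.

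The log2 fold changes of CUL4A were 0.19 in C17.2 (95% interval -0.076 to 0.45, adjusted p = 0.258, limma) and -0.034 in C3.2 (-0.29 to 0.23, adjusted p = 0.883, limma). Those of CUL4B were -0.051 (-0.24 to 0.13, adjusted p = 0.663, limma) and -0.067 (-0.25 to 0.12, adjusted p = 0.618, limma), and the sign of the former turned to 0.10 with TPM as deposited, where the median of all genes stood at 0.13. CUL4A overlaps PCID2 (7.91 to 10.45 TPM) and CUL4B overlaps MCTS1 (20.93 to 31.19 TPM), each on the opposite strand.

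CUL7 and CUL9 are large atypical cullins whose genes both lie on chromosome 6, CUL7 (ENSG00000044090.8) from 43037617 to 43053943 on the minus strand and CUL9 (ENSG00000112659.14) from 43182184 to 43224587 on the plus strand. CUL7 was at 3.82 and 3.605 scaled TPM in parental and 3.66 and 3.70 in resistant libraries of C17.2, and at 2.98 and 3.21 in parental and 3.07 and 3.195 in resistant libraries of C3.2. All 4 C17.2 libraries lay above all 4 C3.2 libraries, where clone and when libraries were made cannot be told apart. How many of all tested genes showed that order was not counted. The log2 fold changes were -0.0085 (95% interval -0.18 to 0.16, adjusted p = 0.952, limma) and 0.013 (-0.16 to 0.19, adjusted p = 0.935, limma). CUL7 overlaps KLC4, which was at 5.66 to 10.4 TPM on the opposite strand.

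CUL9 was at 12.6 and 12.99 scaled TPM in parental and 12.2 and 10.6 in resistant libraries of C17.2, and at 12.0 and 13.1 in parental and 14.2 and 13.3 in resistant libraries of C3.2. Its resistant libraries were thus both below the parental ones in C17.2 and both above them in C3.2. The log2 fold changes were -0.15 (95% interval -0.35 to 0.039, adjusted p = 0.209, limma) and 0.12 (-0.073 to 0.31, adjusted p = 0.384, limma). The difference between the clones was -0.27 (-0.55 to -0.00080), which did not pass over all genes (adjusted p = 0.184, limma). A long noncoding RNA, ENSG00000245261, overlaps CUL9 on the opposite strand at 0.77 to 1.02 TPM.

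Of the 2 RING genes, RBX1 rose in C17.2 and RNF7 did not pass. RBX1 (ENSG00000100387.8) lies on the plus strand of chromosome 22 from 40951347 to 40973309, and no other annotated gene overlaps it. It was at 19.2 and 19.8 scaled TPM in parental and 23.5 and 23.6 in resistant libraries of C17.2. In C3.2 it was at 26.3 and 26.4 in parental and 26.1 and 27.7 in resistant libraries. Every C17.2 library, resistant ones included, was thus below every C3.2 library, an order whose share among all tested genes was not counted.

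The log2 fold change of RBX1 was 0.26 in C17.2 (95% interval 0.15 to 0.37, adjusted p = 0.0088, limma) and 0.028 in C3.2 (-0.084 to 0.14, adjusted p = 0.750, limma). The difference between the clones, 0.23 (0.071 to 0.39), came nearest to the threshold of any member without passing it (adjusted p = 0.0806, limma). Without C17.2 parental replicate 1 the RBX1 change was 0.24 (adjusted p = 0.0511, limma).

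RNF7 (ENSG00000114125.14, chromosome 3, 141738249 to 141747560, plus strand) was at 13.6 and 15.8 scaled TPM in parental and 11.4 and 13.2 in resistant libraries of C17.2, with no overlap. In C3.2 it was at 16.6 and 15.6 in parental and 15.1 and 16.0 in resistant libraries, which overlapped. The log2 fold change was -0.24 in C17.2 (95% interval -0.47 to -0.010), which passed unadjusted and not after adjustment over all genes (adjusted p = 0.114, limma), and -0.046 in C3.2 (-0.27 to 0.18, adjusted p = 0.806, limma). The pseudogene RNF7P1 was at most at 0.15 TPM, CUL1P1 at most at 0.05 TPM, and CUL4AP1 was listed at 0 in every library.

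**Figure D2:**
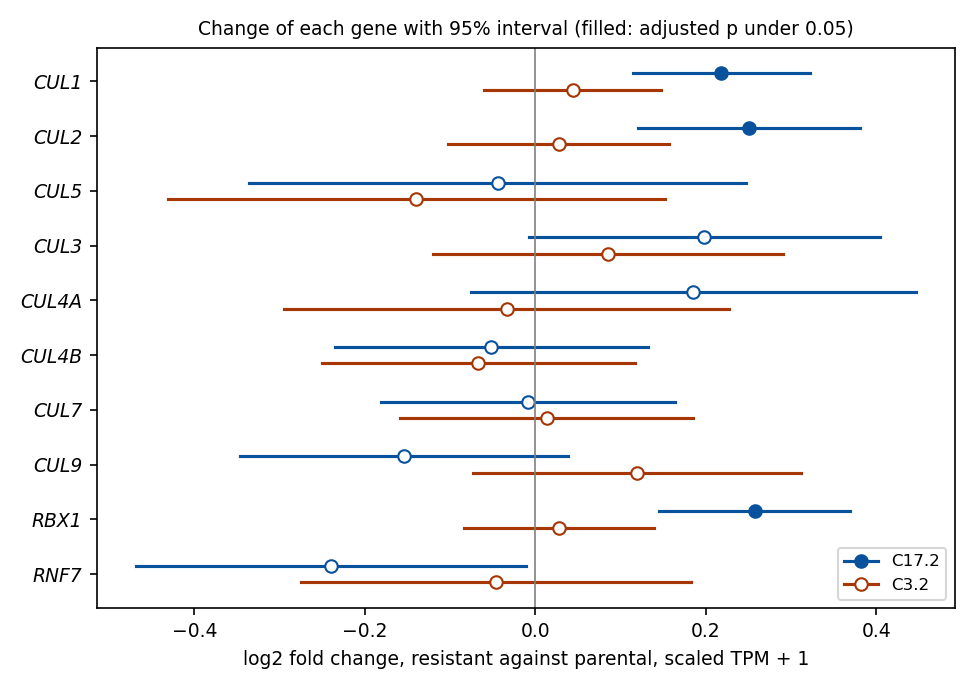
log2 fold change of each gene, resistant against parental, on the scale of scaled TPM + 1 (horizontal axis), with the 95% interval from limma as a line, C17.2 in blue and C3.2 in brown. CUL1, CUL2 and RBX1 in C17.2 are the filled points, with adjusted p under 0.05, and every other interval but that of RNF7 in C17.2 includes 0.

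Counted by order alone, both resistant libraries exceeded both parental ones for 4 members in C17.2 (CUL1, CUL2, CUL3 and RBX1), where 33.3% of all tested genes did so, and fell below them for CUL9 and RNF7, where 32.7% did. In C3.2 the members above were CUL1, CUL3 and CUL9 (27.8% of all genes), and 0 members were below (28.1%). With 2 libraries against 2, an exact permutation test cannot give a p under 0.333 for a single gene. For the difference between the clones 0 of 10 members passed limma's test after adjustment. Of all genes 9.91% passed, 4.92% with the larger value in C17.2 and 5% with the smaller. At an unadjusted p under 0.05 were 4 members (CUL1, CUL2, CUL9 and RBX1) and 4208 of all 15614 tested genes. In C3.2, 0 of 10 members had an unadjusted p under 0.05, where 4307 of all 15614 tested genes did.

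Parental C17.2 cells had the lowest levels of 4 members. For CUL1, CUL2, CUL3 and RBX1, both parental C17.2 libraries lay below all 6 other libraries, a pattern noted after the values were seen and held by 14.7% of all tested genes, while in 15% both lay above the others. Resistant C17.2 cells held 27.1 to 27.3 scaled TPM of CUL1, above all 4 libraries of C3.2, but 23.5 to 23.6 of RBX1, below all 4. The share of all tested genes with either order was not counted.

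Ratios of members within a library do not depend on how libraries were scaled to each other. The ratio of RBX1 to RNF7 was 1.42 and 1.26 in parental and 2.07 and 1.79 in resistant libraries of C17.2, that is 1.34 ± 0.114 against 1.93 ± 0.196 (SD, n = 2 each). In C3.2 it was 1.58 and 1.69 in parental and 1.72 and 1.73 in resistant libraries, or 1.64 ± 0.0792 against 1.73 ± 0.00544 (SD, n = 2 each). The change was 0.591 in C17.2, with a pooled SD of 0.160, and 0.0895 in C3.2, with a pooled SD of 0.0562. These SDs come from 2 libraries a group and give no test. The resistant libraries of both clones stood above the parental ones. Of all tested genes, taken singly, 33.3% showed that order in C17.2 and 27.8% in C3.2, and no such share was counted for ratios of genes. In C3.2 neither RBX1 nor RNF7 passed on its own, at log2 values of 0.028 and -0.046 (adjusted p = 0.750 and 0.806, limma).

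The sum of RBX1 and RNF7 relative to the sum of the 8 cullins went from 0.271 to 0.262 in C17.2 and from 0.311 to 0.307 in C3.2, with overlapping libraries in both. The summed level of the 8 cullins was 126 ± 1.41 scaled TPM in parental and 137 ± 6.66 in resistant cells of C17.2, and 136 ± 0.684 and 138 ± 1.27 in C3.2 (SD, n = 2 each). RNF7 relative to CUL5, the pair that works together, was 0.960 and 1.20 in parental and 0.919 and 0.941 in resistant libraries of C17.2, and overlapped in C3.2. The ratio of CUL4A to CUL4B was 0.614 and 0.627 in parental and 0.667 and 0.823 in resistant libraries of C17.2, and overlapped in C3.2.

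As shares of the summed cullin TPM, CUL3 made up 25.6% in parental and 27.3% in resistant cells of C17.2 and 25.2% and 26.5% in C3.2, with overlapping libraries in both. The share of CUL1 went from 18.4 to 19.9% in C17.2 and from 19.0 to 19.4% in C3.2, with no overlap in either. That of CUL2 went from 9.85 to 11.0% in C17.2, also with no overlap. The shares of CUL4B (13.7 to 12.2%), CUL5 (10.8 to 9.62%), CUL7 (2.94 to 2.69%) and CUL9 (10.1 to 8.35%) were lower in resistant cells of C17.2 with no overlap. How often shares of other genes stand apart in this way was not counted. Shares are parts of a fixed whole, so a rise of some cullins lowers the shares of others. In scaled TPM the log2 fold changes of CUL4B, CUL5, CUL7 and CUL9 in C17.2 were -0.051, -0.044, -0.0085 and -0.15, none past the threshold. Among them only CUL9 had no overlap in scaled TPM, where 32.7% of all tested genes lay lower by order alone. The share of CUL9 went the other way in C3.2, from 9.22 to 9.93%. For each cullin the mean share differed by less than 2 percentage points between parental and resistant cells of a clone.

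**Figure D3:**
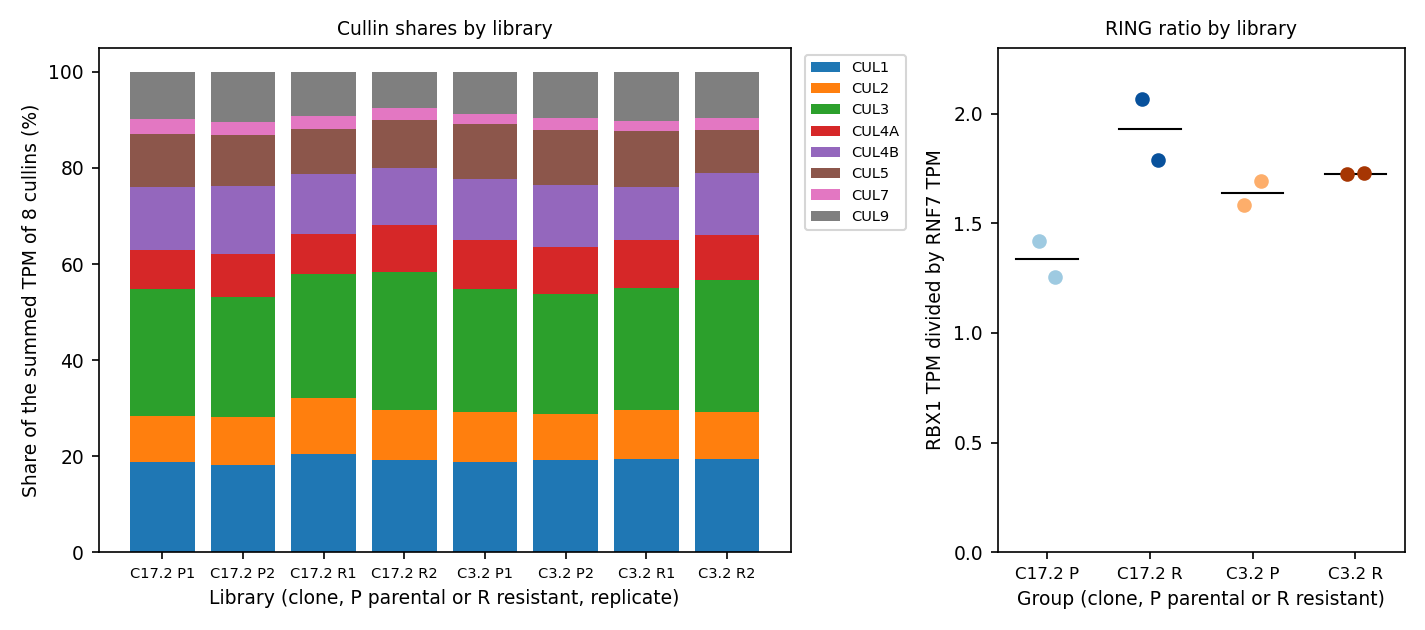
Left, the share of each of the 8 cullins in their summed TPM (%) in each library, as stacked bars that reach 100; right, the ratio of RBX1 TPM to RNF7 TPM in each library (points) with the group mean (bar). CUL3 holds the largest share in every library, and the RING ratio is 1.26 and 1.42 in parental and 1.79 and 2.07 in resistant C17.2.

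The promoters of the RING genes are shown because the ratio of RBX1 to RNF7 was higher in both resistant libraries than in both parental libraries of each clone. That order was not tested. Each run is 300 bases, most of it before the RefSeq start, on the plus strand of GRCh38.p14, at chr22:40951128-40951427 for RBX1 and chr3:141738048-141738347 for RNF7. Capitals mark matches on either strand to GGGCGG, the GC box bound by SP1 proteins, to the CCAAT box, to the E-box CACGTG and to the cyclic AMP response element TGACGTCA, none of which overlapped another here, and positions are counted from 0 at the start.
RBX1: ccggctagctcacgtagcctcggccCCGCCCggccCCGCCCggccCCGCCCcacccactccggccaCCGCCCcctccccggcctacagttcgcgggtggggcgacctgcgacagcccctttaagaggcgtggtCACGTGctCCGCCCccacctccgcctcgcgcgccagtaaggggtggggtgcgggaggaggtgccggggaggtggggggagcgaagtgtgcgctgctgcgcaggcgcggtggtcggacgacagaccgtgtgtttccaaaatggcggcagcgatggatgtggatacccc
RNF7: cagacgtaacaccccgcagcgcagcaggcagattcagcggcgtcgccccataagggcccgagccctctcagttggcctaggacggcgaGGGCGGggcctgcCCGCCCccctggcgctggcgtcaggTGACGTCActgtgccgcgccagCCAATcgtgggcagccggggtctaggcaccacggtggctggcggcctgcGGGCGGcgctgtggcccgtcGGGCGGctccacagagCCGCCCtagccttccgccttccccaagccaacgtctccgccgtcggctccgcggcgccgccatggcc

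RBX1 held 5 GC boxes, at -225, -215, -205, -184 and -109, and an E-box at -117. RNF7 held 5 GC boxes, at -162, -149, -53, -33 and -17, a CCAAT box at -102 and a cyclic AMP response element at -124. GC content was 73.3% and 74.3%, where the median of 35116 RefSeq promoters of this length was 58.7%. Of those promoters 45% held a GC box, 34.6% a CCAAT box, 7.26% this E-box and 1.85% this response element.

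Over the 9 members with entries in the promoter table, 22 starts in all, 12 held a GC box (54.5%, against 45% of all promoters), and each gene held it in at least 1 of its starts, of which most genes have several. CCAAT was in 5 of the 22 (22.7%, against 34.6%), of CUL1, CUL4B and RNF7, and CACGTG in 3 (13.6%, against 7.26%), of CUL4B, CUL5 and RBX1. CCGGAAG, an ETS family motif searched on both strands like the rest, was in 4 of the 22 (18.2%, against 10.3% of all promoters), of CUL4A, CUL4B and CUL9. GCATGCGC, the core of the NRF1 site, was in 1 of the 22, of CUL1 (3.05% of all promoters), AAGATGGC, a YY1 motif, in 1, of CUL4B (2.89%), and TGATGCAA, an ATF4 motif, in 0 (0.866%). CUL7 had no entry. The GC box was the motif that CUL1, CUL2 and RBX1 had in common, and the other 6 genes held it too.

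The genes whose level over the 8 libraries was most like that of CUL1, among 11187 other tested protein-coding genes, were FKBP1A, C11orf98 and TNS1, with Pearson's r of 0.994, 0.987 and 0.986. Those most like RBX1 were SLIRP, TOMM6 and NDUFB2, at 0.996, 0.994 and 0.993. Like RBX1 they were lower in all 4 libraries of C17.2 than in those of C3.2, which follows from choosing them by likeness to RBX1. CUL1 and RBX1 correlated at 0.765, which put RBX1 at rank 1219 for CUL1. These values describe 8 libraries that share clones and scaling, and carry no test.

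Genes that work with cullins were taken as lists of adaptors, substrate receptors, ubiquitin-transfer enzymes and regulators, 140 genes of which 129 were tested. In C17.2, 26 were higher and 5 lower in resistant cells, 24% of those tested against 27.3% of all genes, and their median log2 fold change was 0.043. In C3.2, 6 were higher and 4 lower, 7.75% against 11.4% of all genes. The difference between the clones passed for 11, 9 of them higher in C17.2, or 8.53% against 9.91%. Only 8 of the 31 calls in C17.2 held when each of the 8 libraries was left out in turn, namely CAND1, ELOC, KLHL24, SKP1, SKP2, UBE2L3, WSB2 and ZYG11B, and 0 of the 10 in C3.2 did. Of the calls named in the following paragraphs, 16 of 27 in C17.2 and 0 of 10 in C3.2 passed under every processing alternative that tested them, and those that passed under 3 or fewer of 8 are given as such.

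Of the 5 adaptors, which join receptors to the cullin, 4 were higher in resistant cells of C17.2, where 13.4% of all tested genes were. In C3.2, 0 of 5 passed limma's test, adjusted or unadjusted. Of all genes 11.4% passed there after adjustment, and 4307 of 15614 had an unadjusted p under 0.05. The list was chosen with earlier results of these data known. SKP1, the adaptor of CUL1 and of the degron, was at 86.0 and 88.8 scaled TPM in parental and 132.7 and 140.5 in resistant libraries of C17.2, and at 122.1 to 125.5 in the 4 libraries of C3.2. Its log2 fold change was 0.64 in C17.2 (95% interval 0.53 to 0.74, adjusted p = 0.000262, limma). The elongins ELOC and ELOB, which link CUL2 and CUL5 to their receptors, rose by log2 values of 0.45 and 0.34 (adjusted p = 0.00342 and 0.00931, limma), and DDB1, the adaptor of CUL4A and CUL4B, rose by 0.27 (adjusted p = 0.0123, limma).

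DDA1, a small companion of DDB1, was at 0.038 (adjusted p = 0.87, limma). For SKP1, ELOB, ELOC and DDB1 both parental C17.2 libraries again lay below the 6 others, as for 14.7% of all tested genes. The difference between the clones passed for SKP1 (0.66, adjusted p = 0.00298) and ELOC (0.59, adjusted p = 0.0126, limma). Without C17.2 parental replicate 1, parental replicate 2 or resistant replicate 1, ELOB and DDB1 did not pass, at adjusted p up to 0.0643 and 0.0700 (limma). SKP1 overlaps TCF7 (22.55 to 41.86 TPM), ELOB overlaps SRRM2 (249 to 387 TPM) and DDB1 overlaps TKFC (8.04 to 14.5 TPM), each on the opposite strand.

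Among F-box receptors of CUL1, 2 of 12 were higher and 1 lower in resistant cells of C17.2, or 25%, near the share of all genes. SKP2, which targets the cell-cycle inhibitor p27, rose by a log2 value of 0.61 (adjusted p = 0.000501), CCNF by 0.16 (adjusted p = 0.0399), and FBXO11 fell by 0.24 (adjusted p = 0.0228, limma). In C3.2 only FBXO21 passed, at -0.35 (adjusted p = 0.0347, limma), and it did so under 3 of 8 processing alternatives. Of the 11 tested receptors of CUL2, 2 were higher and 0 lower in C17.2, or 18.2%, against 27.3% of all genes. ZYG11B rose by 0.43 and FEM1C by 0.22 in that clone (adjusted p = 0.00352 and 0.0290, limma). In C3.2, 0 of 11 passed, and 3 had an unadjusted p under 0.05, as had 4307 of all 15614 tested genes.

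Of 30 tested BTB receptors of CUL3, 7 were higher and 1 lower in C17.2, or 26.7%, near the 27.3% of all genes. The largest rises were of IPP (0.79), KLHL42 (0.57) and KBTBD8 (0.53 on the log2 scale; adjusted p = 0.0114, 0.00736 and 0.0150, limma). KLHL24 fell by 0.72 in C17.2 (adjusted p = 0.000499, limma), from 26.8 ± 0.147 to 15.9 ± 0.718 scaled TPM (SD, n = 2 each), and by 0.35 in C3.2 (adjusted p = 0.0165, limma), from 30.98 ± 1.46 to 24.0 ± 1.18 scaled TPM (SD, n = 2 each). KLHL42 also rose in C3.2, by 0.49 (adjusted p = 0.0269, limma).

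Of 25 receptors of CUL4A and CUL4B, 3 were higher and 1 lower in C17.2, or 16%, below the share of all genes: DCAF13 (0.28), DCAF1 (0.21), WDTC1 (0.17) and DCAF5 (-0.19), with adjusted p of 0.0233, 0.0368, 0.0490 and 0.0358 (limma). WDTC1 passed under 2 and DCAF5 under 3 of 8 processing alternatives, and WDTC1 in 0 of 8 fits with a library left out (adjusted p 0.0514 to 0.156, limma). DCAF10 passed in C3.2 at 0.24 (adjusted p = 0.0339, limma). Of 20 tested receptors of CUL5, 4 passed in C17.2, or 20%, against 27.3% of all genes. In C3.2, 2 passed, or 10%, against 11.4%. WSB2 rose in both clones, by 0.76 in C17.2 and 0.27 in C3.2 (adjusted p = 0.000572 and 0.0493, limma). PCMTD2 rose by 0.17, and SOCS7 and SPSB3 fell by 0.53 and 0.44 in C17.2 (adjusted p = 0.0339, 0.0389 and 0.0437, limma). SOCS7 and SPSB3 passed under 2 and 3 of 8 processing alternatives. SPSB1 rose by 0.37 in C3.2 (adjusted p = 0.0436, limma). Of the CUL7 complex only 1 of 3 genes was tested, and it did not pass in either clone.

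Of 9 ubiquitin-transfer enzymes, 2 passed in each clone, or 22.2%, against 27.3% of all genes in C17.2 and 11.4% in C3.2. UBE2L3 and UBE2G1 rose in C17.2 by 0.29 and 0.24 (adjusted p = 0.00512 and 0.0148, limma). CDC34 and UBE2R2, the conjugating enzymes that extend chains on CUL1 substrates, were lower in C3.2, at -0.32 and -0.20 (adjusted p = 0.0331 and 0.0480, limma). The UBE2R2 call was lost under all 8 processing alternatives (adjusted p 0.0501 to 0.293, limma) and the CDC34 call under 5 of 8 (up to 0.134). Among 13 tested regulators, 4 rose and 0 fell in C17.2, or 30.8%. Of all genes 27.3% passed in either direction and 13.4% were higher. NEDD8 rose by 0.60, DCUN1D1, which promotes its transfer to cullins, by 0.40, CAND1, which exchanges CUL1 receptors, by 0.34, and NAE1, a subunit of the NEDD8-activating enzyme, by 0.18 (adjusted p = 0.0309, 0.0192, 0.00400 and 0.0317, limma).

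The NEDD8-conjugating enzymes pair with the RING genes, UBE2M with RBX1 and UBE2F with RNF7. UBE2M was at log2 values of -0.066 in C17.2 and -0.077 in C3.2, neither past the threshold. UBE2F was at 0.018 in C17.2 and rose by 0.24 in C3.2 (adjusted p = 0.0444, limma). GLMN, which binds RBX1 and blocks it, was at 0.17 and -0.057 and did not pass. Of the relatives, ANAPC11, the RING subunit of the anaphase-promoting complex, rose by 0.50 in C3.2 (adjusted p = 0.0315, limma), and was at 0.24 in C17.2. ANAPC2, its cullin-like subunit, and CACUL1 did not pass in either clone, with values of -0.053 and -0.15 in C17.2.

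**Figure D4:**
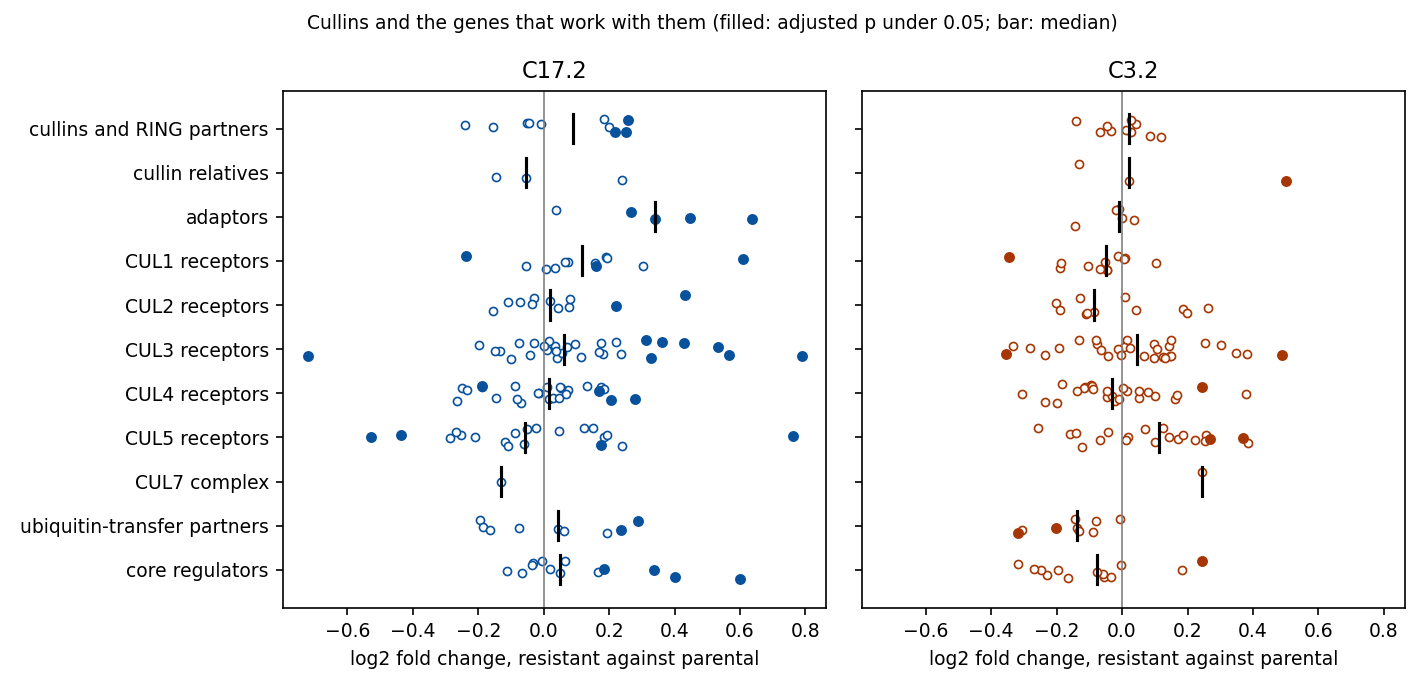
log2 fold change, resistant against parental (horizontal axis), of every tested gene of the cullin and RING genes and of each partner list, 1 point a gene, filled where the adjusted p was under 0.05, with a bar at the median of the list; C17.2 left, C3.2 right. The adaptors have 4 of 5 filled points to the right in C17.2, with a median of 0.34, and 0 of 5 in C3.2, with a median of -0.010. Of all tested genes 13.4% were called higher in C17.2 and 4.46% in C3.2.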

How the data were processed

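Per the labels and the study's methods, ribosomal-RNA-depleted total RNA of 8 libraries of SEM clones was sequenced and the authors trimmed reads with Trim Galore 0.6.3, aligned them with STAR 2.7.9a to hg38 and quantified genes of a Gencode annotation with RSEM 1.3.1. The authors deposited TPM for 60754 genes. TPM holds no counts, so depth is unknown and the limma-voom test of the study could not be repeated. Read layout is given differently in the labels and the methods, and the strand setting is not given in the sources used here.

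A scaling factor per library was taken as the trimmed mean log2 ratio to the mean library (30% of ratios and 5% of means trimmed at each end), and genes that reached a TPM of 1 in any library were tested. log2(scaled TPM + 1) was fitted with limma 3.58.1 (R 4.3.3) as 4 group means over all 8 libraries, with an intensity trend, and two-sided p-values were adjusted by Benjamini-Hochberg over 15614 genes at a threshold of 0.05. The contrasts were resistant against parental in each clone and their difference. The fit was tested on simulated data. Tables and plots were made with Python 3.11.15, pandas 2.3.3 and matplotlib 3.10.9. Positions and overlaps came from Gencode 44 and promoters from RefSeq (GRCh38.p14), in which 9 of 10 members matched.

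All members were named. Of the partner lists, up to 3 genes higher and 3 lower with the largest change per list and contrast were named, with every adaptor and relative, UBE2M, UBE2F, CAND1 and GLMN. The members and the lists were chosen with earlier results of these data known. Alternatives were other scalings, a pseudocount of 0.1, other filters, each clone alone, no intensity trend and each library left out.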

Additional observations from a re-analysis of the deposited data

Results flagged for a closer look

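The change from parental to resistant cells differed between the clones, by limma's interaction test with adjustment over all 15614 genes, for 11 partner genes and 0 of the 10 cullin and RING genes. Values are the log2 change in C17.2 minus that in C3.2. SKP1, the adaptor of CUL1, differed by 0.66, ELOC by 0.59, and CAND1, the exchange factor of CUL1, by 0.53. The F-box genes SKP2 and FBXO21 differed by 0.79 and 0.54. KEAP1, the CUL3 receptor that targets NRF2, differed by 0.41 and KLHL24 by -0.37. The CUL5 receptors WSB2 and SPSB1 differed by 0.49 and -0.66. The ubiquitin-transfer enzymes UBE2G1 and UBE2L3 differed by 0.37 and 0.29. CAND1, SKP1 and SKP2 kept the call when each of the 8 libraries was left out in turn, and the other 8 lost it without at least 1 of them. With the libraries' number as a block, CAND1, ELOC, SKP1 and SKP2 passed (adjusted p = 0.0433, 0.0341, 0.0328 and 0.0248, limma) and the other 7 did not. Of all 15614 tested genes, 600 passed with the block, and 9.91% passed in the fit without it.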

How the results depend on the processing

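CUL1, CUL2 and RBX1 passed in C17.2 under all 8 processing alternatives, with log2 values of 0.22 to 0.37, 0.25 to 0.40 and 0.26 to 0.41 and adjusted p up to 0.0395, 0.0360 and 0.0250 (limma). TPM as deposited, with no scaling, moved the median of all genes by 0.13 in C17.2, 0.053 in C3.2 and 0.084 in the difference between the clones, and it called 4 members, CUL3 included. Of the 10 members 1 to 3 passed in C17.2 with a library left out, 1 of them without C17.2 parental replicate 1, parental replicate 2 or resistant replicate 2. Each fit with a library left out has fewer samples and assumes that the lone library varies like the other groups.

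Partner genes called in C17.2 numbered 48 with TPM as deposited and 19 in a fit of that clone alone. In C3.2 they numbered 1 with no filter on low values, 0 in that clone alone and 4 without the intensity trend, and in the difference between the clones 7 with no filter. All tested genes called in C3.2 numbered 1173 with no filter and 74 in that clone alone. With a library left out, partner counts were 9 to 32 in C17.2, 0 to 13 in C3.2 and 3 to 13 in the difference, and counts of all genes 2374 to 4552, 325 to 1785 and 541 to 1747. The lowest partner counts came without C17.2 parental replicate 1 (C17.2), without C3.2 parental replicate 2 (C3.2) and without C17.2 parental replicate 2 or C3.2 parental replicate 1 (the difference).

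Genes that did not pass could change sign with the scaling. With TPM as deposited, log2 values in C17.2 were 0.10 for CUL4B, 0.11 for CUL5, 0.12 for CUL7, 0.099 for ANAPC2, 0.0067 for CACUL1 and 0.091 for UBE2M, and with TPM rescaled over protein-coding genes 0.030 for CUL4B, 0.036 for CUL5, 0.067 for CUL7, 0.028 for ANAPC2 and 0.017 for UBE2M; quantile normalization gave 0.040 for CUL7 in C17.2 and 0.020 for DDA1 and 0.042 for DDB1 in C3.2. In C3.2, TPM as deposited gave 0.028 for CUL4A, 0.017 for RNF7, 0.062 for DDA1, 0.055 for DDB1, 0.0031 for GLMN and 0.047 for SKP1. Rescaling over protein-coding genes gave 0.066 for CUL4A, 0.032 for CUL4B, 0.054 for RNF7, 0.10 for DDA1, 0.093 for DDB1, 0.039 for GLMN, 0.084 for SKP1 and 0.025 for UBE2M. In the difference between the clones CUL4B was at -0.0025 after rescaling and CUL7 at 0.058 with TPM as deposited.

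With a library left out, log2 values in C17.2 ran from -0.13 to 0.039 for CUL5, -0.041 to 0.024 for CUL7, -0.16 to 0.050 for ANAPC2, -0.026 to 0.10 for DDA1, -0.045 to 0.081 for UBE2F and -0.14 to 0.0040 for UBE2M. In C3.2 they ran from -0.019 to 0.074 for CUL2, -0.090 to 0.023 for CUL4A, -0.17 to 0.039 for CUL4B, -0.32 to 0.038 for CUL5, -0.028 to 0.054 for CUL7, -0.013 to 0.069 for RBX1, -0.035 to 0.079 for ANAPC2, -0.22 to 0.22 for DDA1, -0.073 to 0.052 for DDB1, -0.045 to 0.12 for ELOB and -0.18 to 0.031 for UBE2M. In the difference between the clones they ran from -0.0070 to 0.23 for CUL3, -0.090 to 0.12 for CUL4B, -0.082 to 0.27 for CUL5, -0.063 to 0.019 for CUL7 and -0.18 to 0.26 for DDA1. Numbers in the titles run from 1 to 4 within a clone, so parental and resistant libraries of a clone share none, and no replicate block could be fitted there. Libraries of the 2 clones share numbers within a condition. With the number as a block, a fit chosen after seeing the data, the difference between the clones passed for 0 members, 4 partner genes and 600 of all genes. Deviations of same-numbered libraries correlated at -0.11 (parental) and 0.019 (resistant), and with the parental numbers crossed the counts were 0, 3 and 549. TPM holds no counts, so the precision of low genes such as CUL7 is not known from depth.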
